A study of Oryza sativa with 4 samples.

Results

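In leaves of the progeny of heat-treated rice seed, 107 genes that were well expressed in both control libraries were lower by at least 2-fold in both heated libraries. They were chosen on CPM, the count of a gene divided by the total of its library, times 1000000. The smaller of the control values had to be at least 5 CPM and at least 2 times the larger of the heated values, and the control values had to differ by under 2-fold. Of the 37858 gene IDs in the deposited table, 112 met this rule, and they counted as 107 because 6 of them held the same values in every library. The level and control criteria alone were met by 14250 IDs with identical rows taken once. Because the rule used the difference between heated and control libraries, the size and direction of that difference in these genes is a description, without a test.

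The study profiled poly(A) RNA from leaves of the rice cultivar Nipponbare, a japonica rice whose genome sequence serves as the reference for the species. The heated group holds 2 libraries from progeny of seed given a heat treatment, both with a treatment label of 30 °C. Heated leaves below means leaves of this group, and the name refers to the treated seed. The control group holds 2 libraries from progeny of control seed, of which control 1 has a treatment label of 25 °C and control 2 a label of 30 °C, as the heated libraries have. The labels do not say whether 30 °C was entered for control 2 by mistake, how long the treatment lasted, how old the plants were, how many plants entered a library or whether the replicates came from separate plants, so any p-value measures only the spread between these libraries. Heat during or before germination is known to change gene expression in the treated plant. Whether such changes persist in later growth or pass to progeny, for example through DNA methylation and other chromatin marks, is a question studied in rice and other plants. Comparing progeny leaves addresses that question at the level of RNA.

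The deposited table and the reference table at hand do not pair these IDs with gene names: 0 of the 112 IDs matched. No function, protein or promoter is therefore given for any gene here, and the leaf label was not checked against marker genes. In rice locus IDs such as Os01g0186900, the first digits name the chromosome, and the numbers after the letter g increase along it. Total expected counts were 17298384 and 16605260 in heated 1 and 2, against 15444235 and 17214538 in control 1 and 2, so that the level of 5 CPM stood for between 77.2 and 86.5 reads.

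Control 1 stood apart from the other libraries. Of the 22184 IDs tested, on log2 of CPM plus 0.5, 2293 were at least 2-fold apart between heated 1 and control 1 and 1909 between heated 2 and control 1. Against control 2 these numbers were 1154 for heated 1 and 1028 for heated 2. The controls differed by as much in 1392 IDs and the heated libraries in 510. Without control 1, which leaves the 3 libraries labelled 30 °C, the rule kept 179 genes. It kept 249 genes when control 2 was left out, 157 without heated 1, and 127 when heated 2 was left out. Each of these sets held all 107 genes, which follows from the rule, since leaving out a library can only relax it.

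The 107 genes together made up 0.260% and 0.245% of all counts in heated 1 and 2, against 0.821% and 0.769% in control 1 and 2. Their median level was 8.73 CPM in heated 1 and 8.31 CPM in heated 2, against 30.5 CPM in control 1 and 28.9 CPM in control 2. By the rule every gene had both heated values below both control values. This was the case for 15.9% of the 14250 IDs that met the control criteria. Leaf RNA is a bulk sample, so fewer cells of a type and less RNA per cell cannot be told apart.

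**Figure D1:**
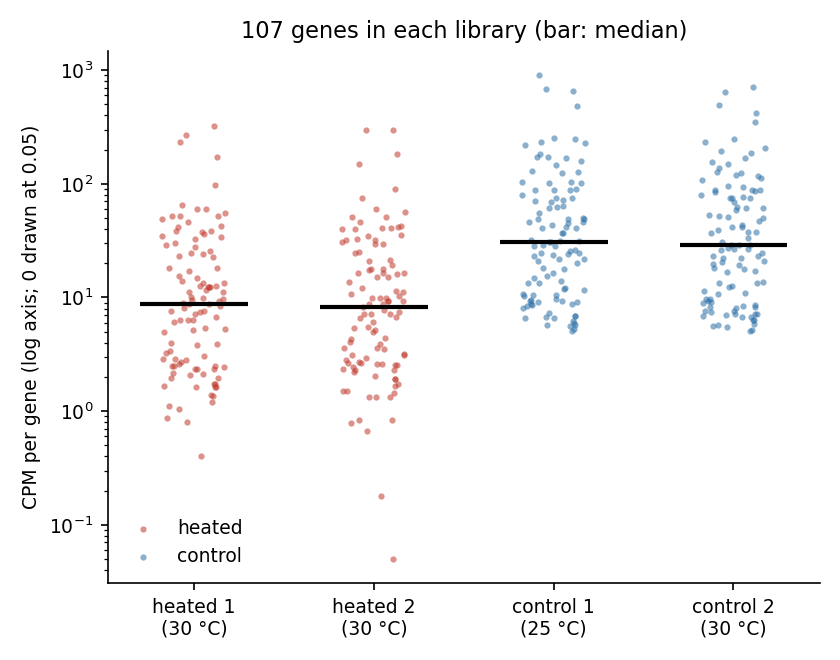
CPM of each of the 107 genes (points, log axis) in heated 1, heated 2, control 1 and control 2, with the median of each library as a bar and the treatment label in °C under its name. The medians are 8.73 and 8.31 CPM in the heated libraries and 30.5 and 28.9 CPM in the controls, and the heated points reach lower, with 1 value at 0.

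Most of the differences were moderate. The heated mean was a median of 30.5% of the control mean, with quartiles of 22.3% and 36.6%, and ranged from 1.60% to 47.6%. The control mean was at least 3 times the heated mean in 67 genes, at least 4 times in 34, at least 8 times in 6 and at least 16 times in 3. Among the chosen genes the size of the difference changed little with level, though the 2-fold minimum of the rule bounds the ratio at every level. With the genes ranked by control mean and cut into groups of 36, 35 and 36, the median ratio of control mean to heated mean was 3.259 in the lowest group, 3.33 in the middle group and 3.24 in the highest group. In heated leaves 65 genes were still at 5 CPM or more in both libraries, and 2 were under 1 CPM in both. In control leaves 20 genes averaged at least 100 CPM, 60 averaged between 10 and 100 CPM, and 27 averaged less than 10 CPM.

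A model across all genes was fitted with the quasi-likelihood test of edgeR, with Benjamini-Hochberg adjustment over all 22184 IDs and calls at an adjusted p under 0.05. All 107 genes passed its filter on low counts, and 77 of them (72.0%) were called lower. Of all IDs, 0.451% were called lower in heated leaves and 0.248% higher. Of the 14250 IDs that met the control criteria, 0.639% were called lower. The rule used the same contrast, so nothing is read from the share of chosen genes called. The same holds for the p-values and calls of single chosen genes below, also those with a library left out. The fitted log2 fold change, heated over control, had a median of -1.79 over the 107 genes and of 0.0061 over all IDs tested. The 30 genes that were not called had adjusted p-values from 0.0518 to 0.309. They were scarcer, with a median of 2.96 CPM in heated and 8.94 CPM in control leaves, against 13.1 CPM in heated and 49.8 CPM in control leaves for the 77 called genes. Of the genes with a control mean of at least 100 CPM, 19 of 20 were called, and of those under 10 CPM, 9 of 27. The shares called over all IDs at these levels were not computed, so these counts only describe the chosen genes. Leaving out a library moved these calls in the same direction as calls of lower IDs over the whole table. Without heated 2, calls of higher IDs rose. Without heated 1, 32 of the 107 genes were called, against 0.176% of all IDs called lower, and without heated 2, 33 were called, against 0.186%. Leaving out control 1 gave 96 of the 107, against 1.11%, and leaving out control 2 gave all 107, against 5.23%. Across these 4 fits the median log2 fold change of the 107 genes was between -1.90 and -1.70. Another 18 genes were called lower over the whole table without meeting the rule (95 genes, or 0.429%, were called lower with identical rows taken once). Of these, 14 had groups less than 2-fold apart by the rule's measure, 3 were under 5 CPM in a control and 1 had controls at least 2-fold apart.

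**Figure D2:**
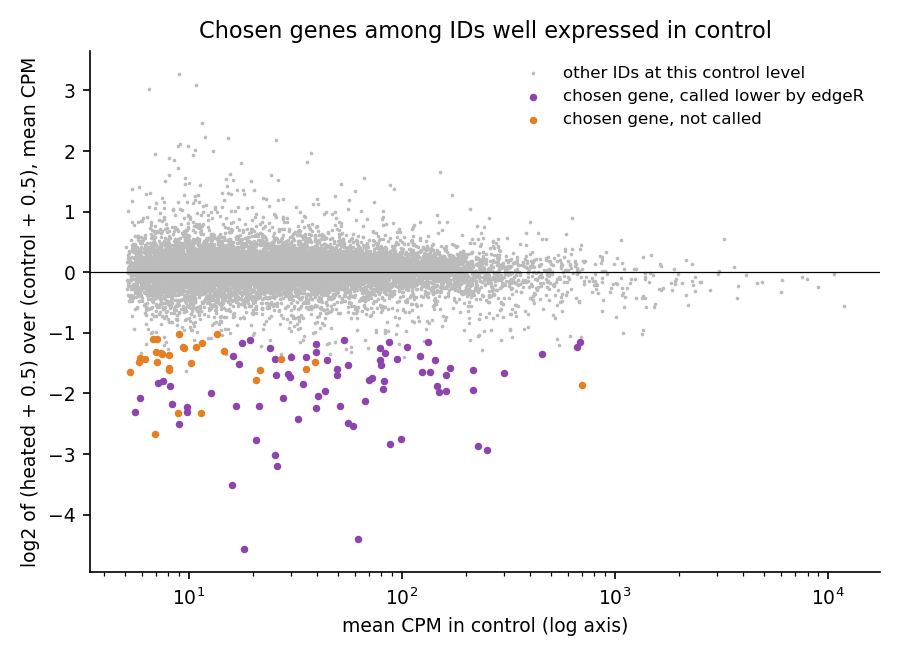
Log2 ratio of mean CPM, heated over control with 0.5 CPM added to both, against mean CPM in control (log axis), for the 14250 IDs that met the control criteria. Purple points are the 77 chosen genes called lower by edgeR, orange points the 30 that were not called, and grey points the other IDs. Most orange points lie at low control levels.

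Of the 4 genes most abundant in control leaves, 3 had a ratio of control mean to heated mean (2.21 to 2.54) below the median of all 107 (3.27). Os02g0240300 had the highest control mean, with 234 and 150.5 CPM in heated 1 and 2, against 909 and 493 CPM in control 1 and 2. Its groups did not overlap, but both pairs of replicates were spread, and it was not called (log2 fold change -1.96, SE 0.37, edgeR adjusted p = 0.109). Leaving out control 1 gave an adjusted p of 0.0159 and leaving out control 2 one of 0.000586, while it was 0.147 without heated 1 and 0.285 without heated 2. Os03g0353400 had 319.9 and 300.4 CPM in the heated libraries and 658 and 715 CPM in the controls. Its replicates were close, and it fell by 1.22 on the log2 scale (SE 0.15, edgeR adjusted p = 0.0346). Os08g0435900 had 267 and 299 CPM in heated 1 and 2, against 686 and 641 CPM in control 1 and 2, and Os03g0764100 had 172 and 185 CPM against 488 and 419 CPM. Both were called, with adjusted p-values of 0.0372 and 0.0335 (edgeR). Without heated 1 the log2 fold changes of these 3 called genes were -1.25, -1.21 and -1.36. Without heated 2 they were -1.18, -1.40 and -1.48. The genes lost their calls in both of these fits. Fewer IDs were called lower over the whole table in them too, and the cause was not tested.

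Of the next 6 genes in order of control level, 2 were reduced much more than the others. Os01g0186900 had 32.5 and 32.2 CPM in heated 1 and 2, against 252 and 247 CPM in control 1 and 2. Os07g0680600 had 29.1 and 32.4 CPM in the heated libraries, against 219 and 235 CPM in the controls. In each of them the replicates of a group were close, and the control mean was 7.71 times the heated mean in Os01g0186900 and 7.40 times in Os07g0680600. Both fell (log2 fold change -3.02, SE 0.14, and -2.96, SE 0.15, both with an edgeR adjusted p of 0.00348). Some of their counts were fractional, which marks reads that also matched another ID. Os01g0934100 averaged 56.0 ± 0.909 CPM in heated and 216 ± 15.3 CPM in control leaves (SD, n = 2 each), and Os01g0384800 averaged 70.2 ± 7.37 CPM and 215 ± 28.8 CPM. Os03g0292100 averaged 55.7 ± 5.98 CPM in heated and 169 ± 1.32 CPM in control leaves, and Os01g0570800 averaged 94.1 ± 4.91 CPM and 301 ± 72.8 CPM (SD, n = 2 each). All 4 were called, with edgeR adjusted p-values between 0.0118 and 0.0265. Of these 4, Os01g0934100 was also called without each library in turn, with a highest adjusted p of 0.0464. The other 3 were not called without heated 1 (adjusted p from 0.0567 to 0.118) or without heated 2 (from 0.0518 to 0.0791).

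The genes with the widest gap between groups, taken as the smaller control value over the larger heated value, were mostly others: 8 of these 10 were not among the 10 most abundant. Os02g0677300 had the widest gap, with 0.405 and 0.181 CPM in heated 1 and 2, against 14.1 and 22.4 CPM in control 1 and 2. Its heated values stood for 7 and 3 reads, so its ratio is imprecise by counting error alone, and it was called (edgeR adjusted p = 0.0116). Os01g0597600 had 2.37 and 2.59 CPM in the heated libraries (41 and 43 reads), against 62.6 and 62.1 CPM in the controls (967 and 1069 reads). The replicates of this gene agreed closely in both groups, and the control mean was 25.1 times the heated mean. It fell by 4.72 on the log2 scale (SE 0.17), with an edgeR adjusted p of 0.00218, the lowest among the 107 genes. The gap that chose this gene comes from the same values, so its p is a description. With each library left out in turn, its log2 fold change lay between -4.80 and -4.65.

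Os09g0457900 had 1.04 and 0.843 CPM in heated 1 and 2, against 21.0 and 10.8 CPM in control 1 and 2. Its controls thus differed by nearly the bound of the rule, with control 2 the lower, and its adjusted p was 0.0265 (edgeR). Os03g0678800 had 2.49 and 2.23 CPM in the heated libraries, against 28.3 and 23.4 CPM in the controls. Os01g0699600 had 2.72 and 2.65 CPM in heated 1 and 2, against 24.5 and 26.2 CPM in control 1 and 2. Heated replicates were close in both genes, while the controls of Os03g0678800 were 1.21-fold apart. The genes fell by 3.52 and 3.31 on the log2 scale (edgeR adjusted p = 0.00823 and 0.00474). Os03g0152000 averaged 11.9 ± 0.865 CPM in heated and 88.1 ± 2.17 CPM in control leaves (SD, n = 2 each). Os01g0821600 averaged 2.59 ± 0.426 CPM in heated and 20.7 ± 3.36 CPM in control leaves, and Os09g0385700 averaged 0.736 ± 0.104 CPM and 5.61 ± 0.214 CPM (SD, n = 2 each). These 3 were called as well, and Os09g0385700 lost its call without heated 1 (edgeR adjusted p = 0.0833) and without heated 2 (0.0748). The other genes with the widest gaps, Os01g0186900 and Os07g0680600 included, were called without each library in turn.

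**Figure D3:**
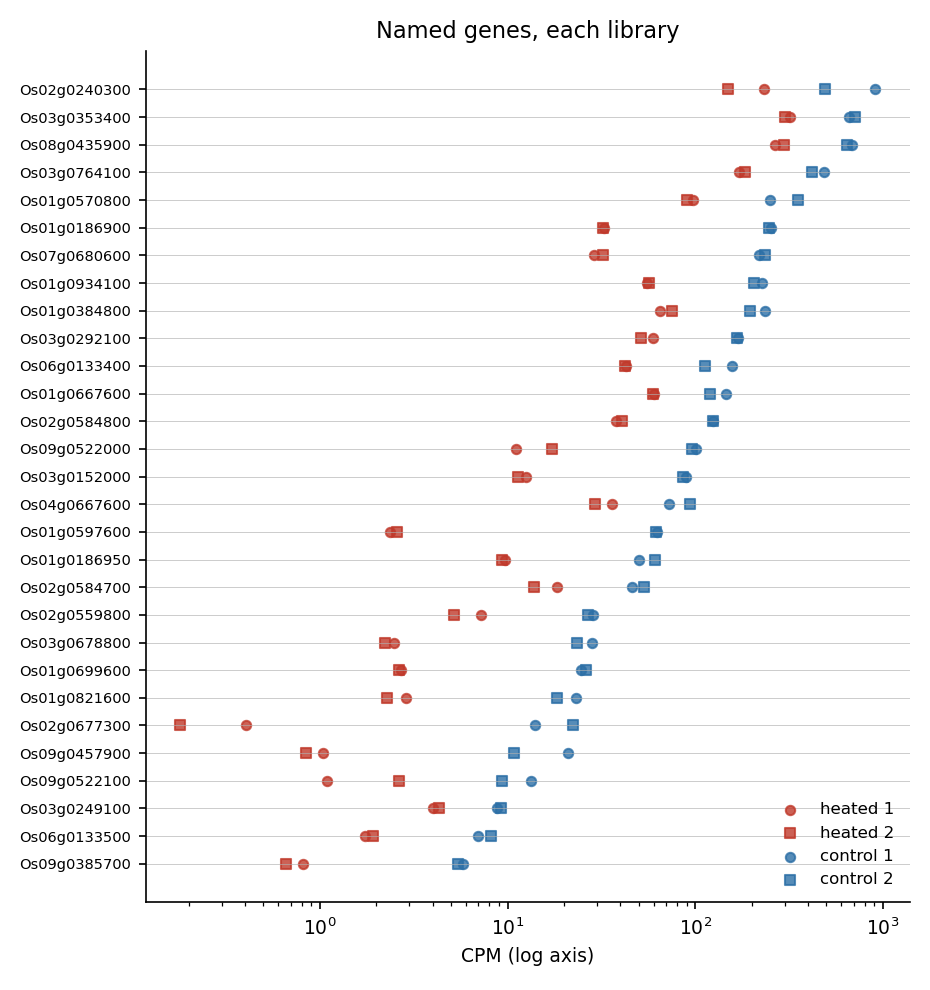
CPM (log axis) of the 29 named genes in heated 1 and 2 (red) and control 1 and 2 (blue), ordered by control mean. Circles are replicate 1 and squares replicate 2. Red and blue points do not overlap in any gene, as the rule requires, and the gap is widest for Os02g0677300 and Os01g0597600.

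At the edge of the rule, genes just inside and just outside differed little by its measure. Os01g0667600 had 60.0 and 59.6 CPM in heated 1 and 2, against 146 and 120.1 CPM in control 1 and 2, and its smaller control value was 2.001 times its larger heated value. Os04g0667600 and Os03g0249100 were next inside, at 2.01 and 2.02 times. Os01g0667600 and Os04g0667600 were called (edgeR adjusted p = 0.0410 and 0.0320), but not without heated 1 (0.232 and 0.0797) or without heated 2 (0.162 and 0.112), and Os03g0249100 was not called (0.115). Just outside stood Os07g0225300, Os02g0653900 and Os05g0126800, each at between 1.983 and 1.996 times. Os02g0653900 had 30.1 and 31.0 CPM in the heated libraries, against 61.6 and 72.4 CPM in the controls, and was the only 1 of these 3 that was called (edgeR adjusted p = 0.0279), though not without heated 1 (0.188) or without heated 2 (0.111). The number of genes thus follows from the chosen fold, and it was 212 at 1.5 times and 42 at 3 times.

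The remaining 78 genes had heated means from 0.675 to 51.5 CPM and control means from 5.31 to 161 CPM. Their control mean was between 2.10 and 10.3 times the heated mean, with a median of 3.17. Of these genes 51 were called, against 0.451% of all IDs tested called lower, and the rule used the same contrast.

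Replicates of these genes were close in most cases, but less so in heated leaves than over the 14250 IDs that met the control criteria. Heated 1 and 2 differed by a median of 1.16-fold in the 107 genes and of 1.09-fold in the 14250 IDs, and by under 1.2-fold in 57.9% of the genes against 80.3% of the IDs. The rule picks genes with heated counts low relative to their controls, and the IDs were not matched to them by level. The part of counting error in this spread was not tested. The heated libraries differed by at least 2-fold, or held a 0, in 4 genes, all with a heated mean of at most 1.87 CPM. Os01g0699450, chosen here after its values were seen, was the gene with the 0. It had 1.35 and 0 CPM in heated 1 and 2, against 8.74 and 5.16 CPM in control 1 and 2, with fractional counts in 3 libraries. The controls, bounded by the rule, differed by a median of 1.17-fold. Control 2 was below control 1 in 61 genes (57.0%) and above it in 46, and it was the lower in 42.1% of the 14250 IDs. The rule used both controls, so their order in the chosen genes can follow in part from it. This difference was not tested.

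The labels of the controls differ in temperature, so the place of control 2 relative to the other libraries was measured. With control 1 set to 0 and the mean of the heated libraries to 1 on a log2 scale, control 2 had a median position of 0.030 over the 107 genes, with quartiles of -0.12 and 0.15. The rule bounds this position, because it kept only genes with similar controls. In 13 genes the controls were at least 1.5-fold apart, with control 2 the lower in 7 and the higher in 6. Of the 13, 7 were called, against 0.451% of all IDs tested called lower, and the rule used the same contrast. Setting control 1 alone against the 3 libraries labelled 30 °C, the same rule without its control bound kept 64 genes, and 0 of them were among the 107, since control 2 lies on the other side of that contrast.

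To see how often a difference in 1 pair of libraries was also found in the other, IDs were chosen on 1 heated and 1 control library only (at least 5 CPM in that control and at least 2 times the heated value) and then read in the other pair. This was done after the data were seen. It describes these wider sets and is no separate support for the 107 genes: each set holds all 107, and by the rule each of them is at least 2-fold lower in both pairs. Chosen on heated 1 and control 1, 349 IDs were obtained, and 146 of them (41.8%, 39 beside the 107) were also at least 2-fold lower in heated 2 against control 2. Among all IDs at 5 CPM or more in control 1, 1.65% were. Chosen on heated 1 and control 2, 138 of 223 IDs (61.9%, 31 beside the 107) were at least 2-fold lower in heated 2 against control 1, where the background was 2.1%. Chosen on heated 2 and control 1, 142 of 382 IDs (37.2%, 35 beside the 107) were at least 2-fold lower in heated 1 against control 2, with a background of 1.25%. Chosen on heated 2 and control 2, 138 of 294 IDs (46.9%, 31 beside the 107) were at least 2-fold lower in heated 1 against control 1, with a background of 1.89%. In each reading between 78.6% and 84.3% of the chosen IDs were lower in the heated library, and between 36.8% and 47.0% of all IDs at that level were. Each reading sets 1 library against 1, the 4 readings reuse the same libraries, and no test was made. The readings also show that between 38.1% and 62.8% of the chosen IDs were less than 2-fold lower, or not lower, in the other pair.

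**Figure D4:**
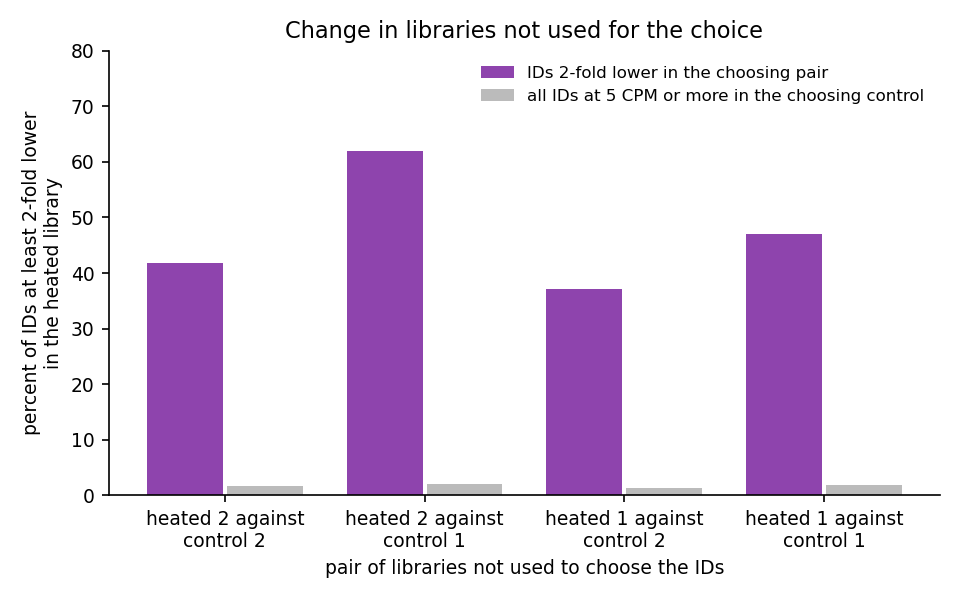
Percent of IDs at least 2-fold lower in the heated library of a pair that was not used to choose them (bars from 0). Purple bars are IDs chosen on the other heated and control library, from 37.2% to 61.9%, each set including the 107 genes. Grey bars are all IDs at 5 CPM or more in the choosing control, from 1.25% to 2.1%.

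By the digits of their IDs, the genes were spread over all 12 chromosomes. Chromosome 1 held 27 of the 107 (25.2%), against 14.2% of the 14250 IDs that met the control criteria. Chromosomes 2 and 3 held 15 each (14.0%, against 12.3% and 14.1%). Chromosome 11 held 1 gene (0.935%, against 4.95%) and chromosome 12 held 2 (1.87%, against 5.51%). These shares were not tested.

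**Figure D5:**
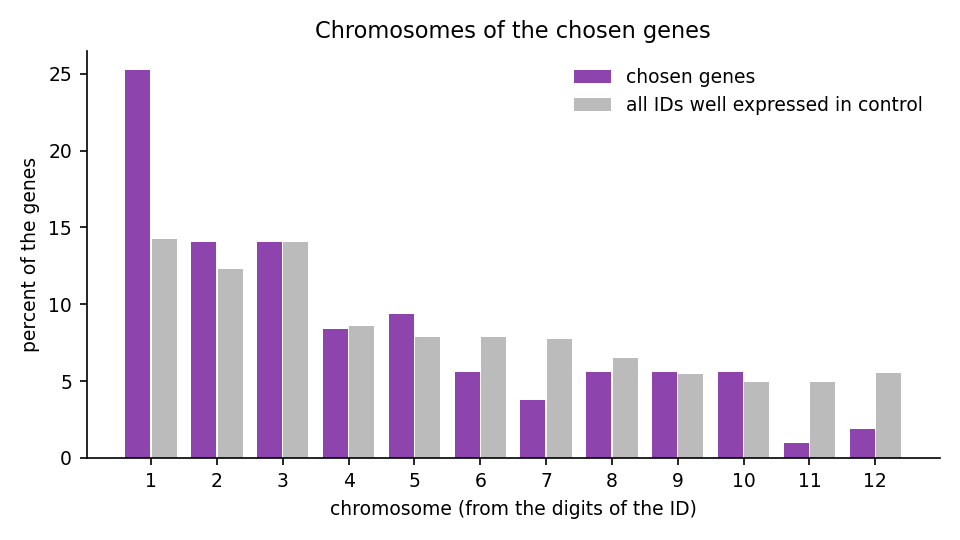
Percent of the 107 genes (purple) and of the 14250 IDs well expressed in control (grey) on each chromosome, read from the digits of the ID (bars from 0). The widest difference is on chromosome 1, with 25.2% against 14.2%.

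Among tested IDs in ID order, with identical rows taken once, 4 pairs of the genes stood next to each other. Os01g0186900 was followed by Os01g0186950, which had 9.64 and 9.39 CPM in heated 1 and 2, against 50.4 and 61.1 CPM in control 1 and 2. Their expected counts were fractional in all 4 libraries, yet summed to whole numbers within 0.005 in each, so some reads were divided between the IDs and their separate levels are uncertain. The sum of the pair, which does not depend on that division, was 42.1 and 41.6 CPM in heated 1 and 2, against 303 and 308 CPM in control 1 and 2, a control mean 7.29 times the heated mean. Both IDs were called without each library in turn, but since they share reads they are not separate observations.

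The other 3 pairs had whole counts. Os09g0522000 had 11.2 and 17.3 CPM in heated 1 and 2, against 101 and 96.1 CPM in control 1 and 2, and Os09g0522100, next to it, had 1.10 and 2.65 CPM against 13.4 and 9.35 CPM. In both genes heated 2 was the higher heated library. Os09g0522000 fell by 2.87 on the log2 scale (SE 0.24, edgeR adjusted p = 0.0182), while Os09g0522100 had a log2 fold change of -2.68 (SE 0.45) and was not called (adjusted p = 0.0815). Os02g0584700 had 18.3 and 13.8 CPM in the heated libraries, against 46.0 and 53.6 CPM in the controls, and Os02g0584800 had 37.7 and 40.7 CPM against 124 and 125 CPM. Os06g0133400 had 43.0 and 42.2 CPM in heated 1 and 2, against 158 and 113 CPM in control 1 and 2, and Os06g0133500 had 1.73 and 1.93 CPM against 6.93 and 8.19 CPM. These 4 were called (edgeR adjusted p from 0.0137 to 0.0364). Without heated 1, Os02g0584800 and both genes of the chromosome 6 pair were not called (adjusted p from 0.0626 to 0.183), and without heated 2 Os02g0584700 and the chromosome 6 pair were not (from 0.0588 to 0.105).

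The IDs next to the genes were read in the same fit, and their shares were not tested against those of all IDs. Of the 204 tested IDs that flank the genes without belonging to them, 3 were called lower (1.47%, against 0.451% of all IDs tested) and 1 higher. Both heated values were below both control values in 43 of them (21.1%, against 15% of all IDs tested). Their median log2 fold change was -0.047, and 11 were at least 2-fold lower in the fit (5.39%, against 2.49% of all IDs tested). A further 10 were at least 2-fold higher, for which the share of all IDs was not computed.

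The set of identical rows consists of 6 IDs on chromosome 2 between Os02g0559800 and Os02g0561800. Each was listed at 7.19 and 5.17 CPM in heated 1 and 2, against 28.4 and 26.8 CPM in control 1 and 2, and the set was called (log2 fold change -2.23, edgeR adjusted p = 0.0192). Equal fractional counts do not tell the copies apart, so the CPM of a single copy is not known. IDs that lie between these copies had other values. Os02g0560450 had 1.91 and 2.47 CPM in the heated libraries, against 2.27 and 1.98 CPM in the controls, and Os02g0559900, itself 1 of several identical rows there, was listed at no more than 0.169 CPM in any library. In all, 12 of the 107 genes (11.2%) had a fractional count in some library, compared with 20.9% of the 14250 IDs.

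Applied in the other direction, with the groups exchanged, the rule kept 93 genes as raised in heated leaves. These had a median of 16.03 CPM in heated and 3.71 CPM in control leaves, whereas the 107 reduced genes had a median of 8.76 CPM in heated and 29.8 CPM in control leaves. The floor of 5 CPM applies to the heated libraries for the raised genes and to the controls for the reduced genes, so these levels follow in part from the rule.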

How the data were processed

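The values are expected counts for each gene ID, which the authors deposited unscaled and which come from RSEM, per the file headers. Per the submitters' processing notes, FastQC 0.11.7, Trimmomatic, Bowtie2, RSEM, edgeR 3.26.3 and the build IRGSP-1.0 were used, with settings, gene annotation and strand handling not given in the sources used here. RSEM divides reads that match several IDs, so counts can be fractional and such levels are uncertain. Per the labels' protocols, libraries came from a strand-marking mRNA kit read as paired ends.

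CPM for levels and for the rule used the column totals. Expected counts were rounded and tested in R 4.3.3 with the edgeR 4.0.16 quasi-likelihood test (filterByExpr, TMM scaling, group as the only term), checked on simulated counts. SE is the log2 fold change over the square root of F. Samples were grouped by title. Alternatives covered scaling, filter, DESeq2 1.42.0, replicate block, treatment label, each library left out and the limits of the rule. Genes named were the 10 with the highest control mean, the 10 with the widest gap, 3 on each side of the fold threshold, identical rows and adjacent pairs. The product lists planned were not used, since the reference table (assembly ASM3414082v1) matched 1 of 37858 IDs. The genes and lists were chosen with earlier results of these data known.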

Additional observations from a re-analysis of the deposited data

How the results depend on the processing

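The rule kept 107 genes, 212 with a fold of 1.5, 42 with a fold of 3, 64 by treatment label, and between 127 and 249 with 1 library left out. Other floors, control bounds and scalings kept between 78 and 129. The fit called 155 genes, 55 higher and 100 lower. DESeq2 called 551 (275 lower), no filter on low counts 419 (204 lower), and the replicate block 532 (237 lower). The treatment label gave 174 (39 lower), and leaving out 1 library gave between 64 and 2506, with 40 to 1199 lower. Of the 107 genes, 77 were called, against 0.451% of all IDs tested called lower. DESeq2 called 103 of them, 102 were called without a filter and 104 with the replicate block. The shares of all IDs called lower in these other fits were not computed. The rule used the same contrast, so nothing is read from these counts. Equal replicate numbers were not treated as pairs, because the labels do not say so and replicate differences had a correlation of -0.012 across genes between the groups. Leaving out 1 library gave between 32 and 107. By treatment label edgeR called 0 of them, and 5 (4.67%) were lower with an unadjusted p under 0.05, against 9.77% of all 23285 IDs tested. The rule keeps control 2 near control 1, which limits these counts. Their median log2 fold change of -1.79 was -0.997 by treatment label and between -1.90 and -1.70 with 1 library left out. For the 32 named IDs, 249 of 320 results stayed on the same side of the threshold, 53 lost and 18 gained a call, and 0 changed direction. Of those lost, 27 were by treatment label and 13 each without heated 1 and without heated 2. That 0 named IDs changed direction largely follows from how they were chosen, inside the rule or just outside it, and is no support. Where a fit left 1 library in a group, that library was assumed to vary like the others. The cause of these moves was not tested.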
